A study of Mus musculus with 6 samples.

Results

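The voltage-gated sodium channel alpha subunits are the large pore-forming proteins that carry the rising phase of the action potential. 9 of their genes (Scn1a, Scn2a, Scn3a, Scn4a, Scn7a, Scn8a, Scn9a, Scn10a and Scn11a) were chosen by name and found by Ensembl identifier, among 41388 genes listed in the count tables. They were described in 6 RNA-seq libraries, 3 from female and 3 from male mouse embryos, each library known by its sex and a letter. Every library came from C57BL/6 embryos at 18.5 days post coitum with the genotype RetFloxedEGFP / Scn10a<tm2(cre)Jnw>, and dorsal root ganglia of spinal levels T11 to S1 were dissociated and sorted for EGFP. The label of male C gives that genotype only in part, and its record was submitted later than the others. In this cross EGFP marks cells of the Ret population in which Cre, made from the Scn10a locus, has acted. The cells of all 6 libraries were therefore chosen through past activity of the locus of one of the genes described here. No unsorted or Cre-negative cells were analysed here, so the Scn10a level was not compared with that of other cells. At least 1 copy of the Scn10a locus in the sorted cells carries Cre, so the Scn10a level is not that of 2 unaltered copies. Whether both copies carry it was not given in the sources used here. Female A, female B, female C and male A each pooled 40 ganglia of 2 embryos, male B pooled 60 ganglia of 3 embryos, and male C held 20 ganglia of 1 embryo.

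Depth ranged from 15.69 to 24.03, in units of 1e+06 counts per library, and 19526 to 21755 genes had reads. The sorted neurons carried the markers of nociceptors, the pain-sensing neurons of the ganglion: all 10 listed markers were detected in every library, with a summed level between 1709 and 2403 RPKM (reads per kilobase of gene per 1e+06 counts). Ret is among these markers, and the sort for EGFP selected the Ret population. Its detection was therefore set by the sort and is no separate sign of identity. All 10 listed markers of satellite glia and Schwann cells were detected as well, and summed to between 890.2 and 1069 RPKM. Markers of large-diameter sensory neurons summed to between 79.6 and 104 RPKM. Endothelial and immune markers summed to at most 1.41 and 0.632 RPKM, and the spinal cord markers Olig2, Pax2, Lhx5 and Neurod2 were at 0 in all 6 libraries. Slc6a5, also on the spinal cord list, was at 0.0118 RPKM in male B and at 0 elsewhere. The part of these other cells in the values of the alpha subunits was not tested.

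An alpha subunit is a single chain of 4 homologous domains around one pore. It opens when the membrane depolarises, lets sodium in and inactivates within milliseconds. In adult sensory neurons Nav1.7, Nav1.8 and Nav1.9 (encoded by Scn9a, Scn10a and Scn11a) are the channels most closely tied to pain. Nav1.8 and Nav1.9 conduct in the presence of the pufferfish poison tetrodotoxin, whereas Nav1.7 and the channels of brain and skeletal muscle are blocked by it. Nax, the product of Scn7a, belongs to the family by sequence but is known as a sodium sensor in place of a voltage-gated channel.

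The residue that separates resistant from sensitive channels sits in the pore of domain I, directly after the aspartate of the selectivity filter. Its codon is shown for 8 of the genes because a serine there sets the resistant pair apart. The grouping of levels below follows the known pharmacology of the channels, with Scn7a on its own. The stretches below are coding strands of the GENCODE M21 transcripts on GRCm38, each within 1 exon, and the capitals mark the codon that follows the aspartate.
Scn10a: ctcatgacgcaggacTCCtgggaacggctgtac
Scn11a: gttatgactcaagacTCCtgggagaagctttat
Scn9a: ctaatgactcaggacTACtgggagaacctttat
Scn3a: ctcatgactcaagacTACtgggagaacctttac
Scn8a: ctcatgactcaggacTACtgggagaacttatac
Scn4a: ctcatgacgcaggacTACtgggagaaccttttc
Scn2a: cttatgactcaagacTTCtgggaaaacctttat
Scn7a: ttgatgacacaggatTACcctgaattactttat
Scn10a (chr9:119666372-119666404, minus strand, exon 9) and Scn11a (chr9:119805665-119805697, minus strand, exon 9) both encode serine there. Scn9a (chr2:66548986-66549018), Scn3a (chr2:65521798-65521830), Scn8a (chr15:100971623-100971655), Scn4a (chr11:106343898-106343930) and Scn7a (chr2:66726160-66726192) encode tyrosine. Scn2a (chr2:65688421-65688453) encodes phenylalanine. The serine codon is TCC in both resistant genes and is absent from the other 6 shown.

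A second codon sets Scn7a apart. The lysine of the domain III selectivity filter, known for making the pore prefer sodium over calcium, is encoded by 7 of the same 8 genes. In the next lines the capitals mark that codon, in a stretch that is joined from 2 exons.
Scn10a: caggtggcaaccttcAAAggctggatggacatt
Scn11a: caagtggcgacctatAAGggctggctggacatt
Scn9a: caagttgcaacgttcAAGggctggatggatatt
Scn7a: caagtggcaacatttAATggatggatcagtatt
Scn7a carries AAT, asparagine, at this place. Across whole proteins translated from the same transcripts, Scn7a was the least like the resistant pair, with 42.1% of aligned residues identical to Scn10a and 40.1% to Scn11a. Scn10a and Scn11a shared 54.3% with each other. Scn1a, Scn2a and Scn3a were far closer, at 87.8% (Scn1a and Scn2a), 85.2% (Scn1a and Scn3a) and 87.7% (Scn2a and Scn3a). That likeness reaches the level of reads: 4.03% of the 50-base words of Scn1a transcripts, 5.62% of those of Scn2a, 6.49% of those of Scn3a and 4.04% of those of Scn9a occur in another of the 9 genes. The share was 0.04% for Scn8a and 0 for Scn4a, Scn7a, Scn10a and Scn11a. How reads that match several genes were counted was not given in the sources used here, so a small part of the Scn1a, Scn2a, Scn3a and Scn9a counts is uncertain.

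Levels are given as RPKM, from the deposited count and gene length and library sizes normalised by TMM, and all 6 libraries were averaged as one population (mean ± SD, n = 6). The 9 genes spanned more than 2 orders of magnitude and fell into 3 tiers. Scn10a, Scn11a, Scn7a and Scn9a averaged between 46.2 and 119 RPKM. Scn3a, Scn2a, Scn8a and Scn1a averaged between 2.51 and 5.59 RPKM. Scn4a stood below them at 0.248 RPKM.

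**Figure D1:**
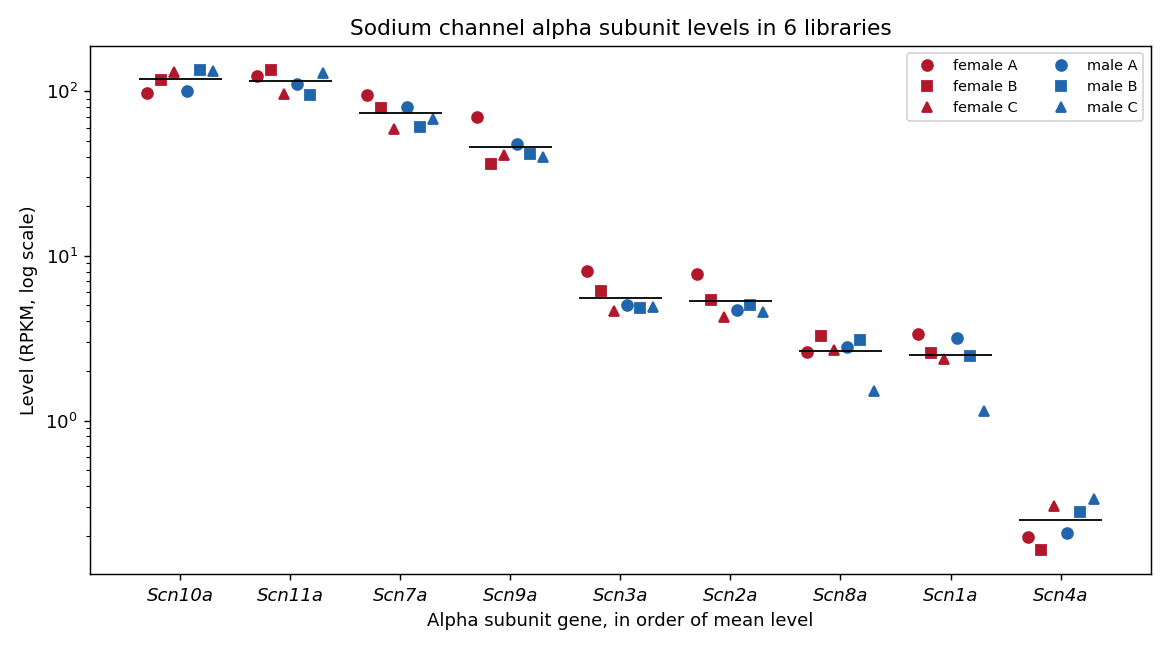
Level of each alpha subunit gene in every library (RPKM, log axis), with females in red to the left of males in blue and the mean of all 6 as a black line. The 4 leading genes lie between 36.3 and 135 RPKM, the middle 4 between 1.14 and 8.12 RPKM, and Scn4a below 0.335 RPKM.

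Scn10a, which encodes Nav1.8, had 97.6, 117 and 131 RPKM in females A, B and C, against 99.99, 134 and 134 RPKM in males A, B and C. Its mean of 119 ± 16.8 RPKM was exceeded by 513 of the 15026 genes that passed the filter on low counts (3.41%). The gene lies at chr9:119608456-119719032 on the minus strand of GRCm38, in 28 exon intervals (ENSMUSG00000034533). Its level was lowest in female A and male A, and the 2 sexes covered nearly the same range.

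Scn11a, its neighbour on the chromosome (chr9:119753763-119825456, ENSMUSG00000034115), encodes Nav1.9, a channel that opens near the resting potential and passes a persistent current. It had 123, 135 and 96.4 RPKM in females A, B and C, against 111, 95.7 and 130.2 RPKM in males A, B and C, with a mean of 115 ± 16.9 RPKM. Scn11a exceeded Scn10a in 3 of 6 libraries (female A, female B and male A), and the ratio of Scn11a to Scn10a within a library ran between 0.714 and 1.26. Which of the pair led therefore depended on the library. The Scn10a values come from a locus that carries Cre, so Scn11a was not compared with an unaltered Scn10a. The mean within-library difference between Scn10a and Scn11a was 0.05 ± 0.34 on the log2(RPKM + 0.1) scale (exact two-sided permutation test by sign flips over 6 libraries, p = 0.781, adjusted p = 0.781).

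Scn7a (chr2:66673425-66784914, minus strand, ENSMUSG00000034810), encoding the sodium sensor Nax, ranked above every tetrodotoxin-sensitive gene. It had 95.4, 79.5 and 59.2 RPKM in females A, B and C, against 79.9, 61.1 and 67.5 RPKM in males A, B and C (mean 73.8 ± 13.8). Female A was the highest library and female C the lowest. The ranges of Scn11a and Scn7a did not overlap but nearly met, at 95.7 RPKM in the lowest Scn11a library and 95.4 RPKM in the highest Scn7a library. Scn7a is also known in glia of the peripheral nervous system, whose markers were present in these libraries, and its part from such cells was not tested.

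Scn9a (chr2:66480080-66634962, minus strand, ENSMUSG00000075316) encodes Nav1.7, the channel that amplifies small depolarisations at pain endings and whose loss in people abolishes pain. It had 70.0, 36.3 and 41.2 RPKM in females A, B and C, against 47.8, 41.8 and 40.0 RPKM in males A, B and C (mean 46.2 ± 12.3). One library stood apart from the other 5: female A was at 70.0 RPKM, and the next highest was male A at 47.8 RPKM. The ratio of Scn9a to Scn10a was 0.718 in female A and between 0.299 and 0.478 in the other 5 libraries. Scn9a reached 0.627 ± 0.10 of the Scn7a level (n = 6), and was below Scn7a in 6 of 6 libraries although the ranges of the 2 genes overlapped. The order of Scn9a and Scn7a depends on gene length: the deposited length is 12772 bases for Scn9a and 7338 for Scn7a, and raw counts were higher for Scn9a in 5 of the 6 libraries, female B being the exception. An antisense gene, Gm13629, shares 180 exon bases with Scn9a and was counted at no more than 23 reads in any library, against at least 7593 for Scn9a.

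Scn3a and Scn2a encode Nav1.3 and Nav1.2, channels best known from the embryonic and early postnatal nervous system and from central axons. Scn3a (chr2:65457118-65567627, minus strand, ENSMUSG00000057182) had 8.12, 6.10 and 4.60 RPKM in females A, B and C, against 5.05, 4.80 and 4.87 RPKM in males A, B and C. Scn2a (chr2:65620857-65767447, plus strand, ENSMUSG00000075318) had 7.81, 5.43 and 4.28 RPKM in females A, B and C, against 4.69, 5.04 and 4.56 RPKM in males A, B and C. Both were highest in female A and lowest in female C, and the males lay close together. The pair kept nearly the same ratio everywhere: Scn3a over Scn2a was 1.06 ± 0.0576 (n = 6). Scn3a was the higher in 5 of 6 libraries, and the within-library difference of 0.08 ± 0.08 on the log2 scale did not pass the test (exact sign-flip permutation p = 0.0938, adjusted p = 0.125). These are the genes of the set whose transcripts share the most 50-base words, 529 between the pair.

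Scn8a and Scn1a encode Nav1.6, the main channel of nodes of Ranvier, and Nav1.1, which is known in sensory ganglia from larger, myelinated neurons. Scn8a (chr15:100870683-101045929, plus strand, ENSMUSG00000023033) had 2.61, 3.25 and 2.68 RPKM in females A, B and C, against 2.81, 3.07 and 1.52 RPKM in males A, B and C. Scn1a (chr2:66270781-66440840, minus strand, ENSMUSG00000064329) had 3.35, 2.59 and 2.37 RPKM in females A, B and C, against 3.16, 2.47 and 1.14 RPKM in males A, B and C. Male C was the lowest library for both, by 0.77 below the gene mean on the log2 scale for Scn8a and by 1.06 for Scn1a, and in the other 5 libraries both stayed at 2.37 RPKM or above. The pair could not be ordered: Scn8a exceeded Scn1a in 4 of 6 libraries, with a mean difference of 0.11 ± 0.30 on the log2 scale (exact sign-flip permutation p = 0.406, adjusted p = 0.464). In male C, the library from a single embryo, the summed level of large-diameter neuron markers was also the lowest of the 6, at 79.6 RPKM against 82.7 to 104 RPKM in the others, and 4 of its 10 genes (Nefh, Ntrk3, Pvalb and Runx3) were lowest there. The other 6 were not. Nefh was nearly tied, at 17.6 RPKM in male C and 17.8 RPKM in female A. Pvalb differed more between male C and female C (0.841 against 4.56 RPKM) than the summed level did (79.6 against 82.7 RPKM). Nefh differed more than the sum as well, at 17.6 RPKM in male C and 25.6 RPKM in female C. Etv1, Vsnl1 and Spp1 went the other way and were higher in male C than in female C. The lowest sum in male C therefore turns on a few genes and not on Pvalb alone. Etv1, the transcription factor with the highest level in the list, had 38.9 RPKM in male C and 27.7 to 39.8 RPKM in the other libraries, while Pvalb, a calcium-binding protein of muscle-spindle afferents, had 0.841 RPKM in male C and 4.56 to 11.3 RPKM in the others. The part of such neurons in the Scn8a and Scn1a levels was not tested. In bulk RNA from sorted cells, fewer cells of a type and less RNA per cell cannot be told apart.

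Scn4a (chr11:106318592-106353288, minus strand, ENSMUSG00000001027) encodes Nav1.4, the channel of skeletal muscle. It was counted at 22, 28 and 51 reads in females A, B and C, against 32, 47 and 35 reads in males A, B and C, so that all 6 libraries were above the limit of 3 reads that a count of 0 allows. These gave 0.197, 0.163 and 0.304 RPKM in females A, B and C, against 0.208, 0.279 and 0.335 RPKM in males A, B and C. The exact Poisson interval at the 95% level for male C, the highest, was 0.233 to 0.465 RPKM, and for female B, the lowest, 0.108 to 0.235 RPKM, which covers counting error only. Of the tested genes, 93.96% had a higher RPKM than Scn4a. Markers of skeletal muscle were low too, with 5 of 8 detected in every library. They summed to between 5.27 RPKM (female B) and 7.55 RPKM (male C), the libraries in which Scn4a too was lowest and highest. Almost all of the sum came from Acta1 at 5.64 ± 0.859 RPKM (n = 6), while Myod1 was at 0 in every library. None of the other markers was highest in male C. Myh3, Myh8 and Myog were highest in female C, Ttn and Ckm in female A and Chrna1 in male A. Ckm was lowest in female B. The part of muscle RNA in the Scn4a level was not tested.

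In the order of mean levels, 5 of the 8 steps between neighbours went the same way in 6 of 6 libraries. These were Scn11a over Scn7a (0.65 ± 0.21 on the log2 scale), Scn7a over Scn9a (0.69 ± 0.25), Scn9a over Scn3a (3.02 ± 0.24), Scn2a over Scn8a (0.98 ± 0.43) and Scn1a over Scn4a (2.86 ± 0.76; mean ± SD, n = 6). Each of these had the smallest p that 64 sign flips of 6 libraries allow, 0.0313, and an adjusted p of exactly 0.05 over the 8 pairs by the exact permutation test. None was below 0.05, so by that threshold 0 of 8 steps passed, and 5 sat on the threshold. The order was taken from the same 6 libraries, and every uniform step has the same p whatever its size. The adjusted p turns on how many steps are uniform, so the count that passed does not measure their strength. The other 3 steps, within the pairs Scn10a and Scn11a, Scn3a and Scn2a, and Scn8a and Scn1a, were small beside the spread between libraries or not uniform in sign.

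Within each library the levels were also set as shares of the summed RPKM of the 9 genes, a measure that needs no library size. The sum itself varied little, between 341.7 and 408 RPKM, with a mean of 370.2 ± 26.1 (n = 6). Scn10a supplied 32.3 ± 5.85% and Scn11a 31.0 ± 3.03%, so the 2 genes with the serine codon together made up 63.4 ± 5.50% (n = 6). That share was 54.1, 65.4 and 66.4% in females A, B and C, against 59.5, 66.0 and 68.8% in males A, B and C. Per length, the pair held the larger part of the total in all 6 libraries, and least in female A. Scn10a entered this share from a locus that carries Cre. In raw counts, with no correction for gene length, it held 42.3, 55.3 and 55.6% in females A, B and C, against 48.4, 55.1 and 58.6% in males A, B and C, and so was the smaller part in female A and male A.

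Scn7a added 19.8 ± 2.73%, and the 6 tetrodotoxin-sensitive genes together 16.8 ± 3.25% (n = 6). Scn9a alone was 12.4 ± 2.71%, so that the remaining 5 sensitive genes were minor. In raw counts Scn7a held 19.6%, Scn9a 21.3% and the 6 sensitive genes together 27.9 ± 4.53% (n = 6), so the order of Scn7a and the sensitive genes turns with the correction for length. Per length, Scn3a made up 1.5 ± 0.263%, Scn2a 1.42 ± 0.260%, Scn8a 0.723 ± 0.180%, Scn1a 0.681 ± 0.206% and Scn4a 0.0676 ± 0.0204%.

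**Figure D2:**
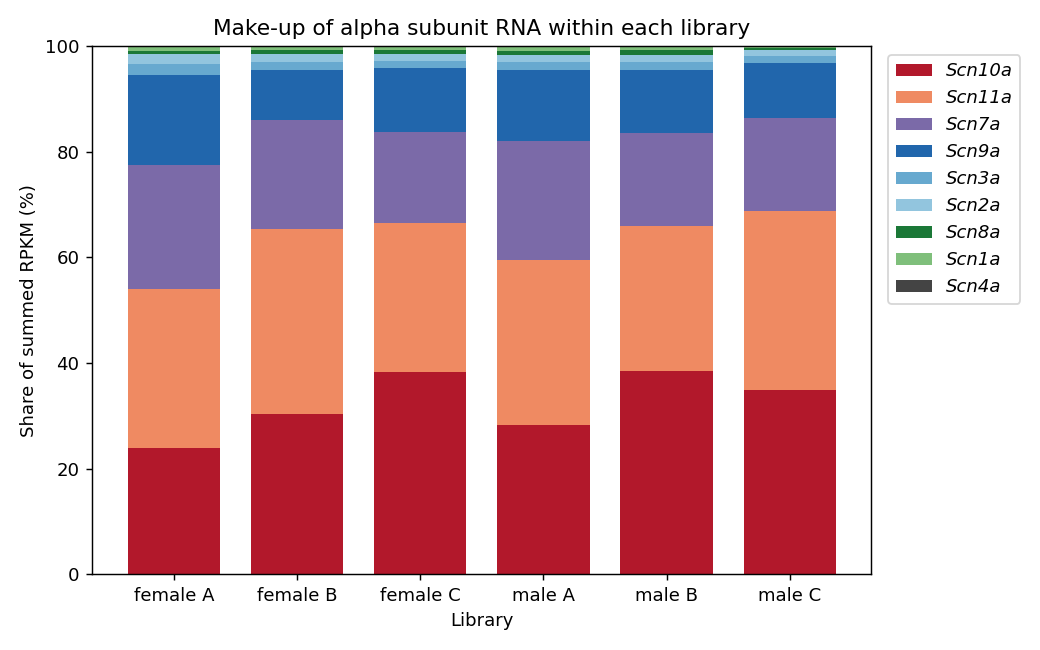
Share of each alpha subunit gene in the summed RPKM of the 9 genes (percent, stacked to 100%) for each library, females left of males. Scn10a and Scn11a fill between 54.1% (female A) and 68.8% (male C), and Scn8a, Scn1a and Scn4a are thin bands at the top.

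The genes also group by place. Scn1a, Scn2a, Scn3a, Scn7a and Scn9a lie in one cluster on chromosome 2, and Scn10a and Scn11a form a second on chromosome 9. The 5 genes of the chromosome 2 cluster summed to 185, 129.8 and 112 RPKM in females A, B and C, against 140.5, 115 and 118 RPKM in males A, B and C. All 5 were highest in female A, by 0.39 (Scn7a) to 0.64 (Scn9a) above the gene mean on the log2 scale. The chromosome 9 pair did not share this: in female A Scn10a was 0.27 below its mean and Scn11a 0.11 above. No test sets the cluster against other genes, since female A was noticed in these values.

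**Figure D3:**
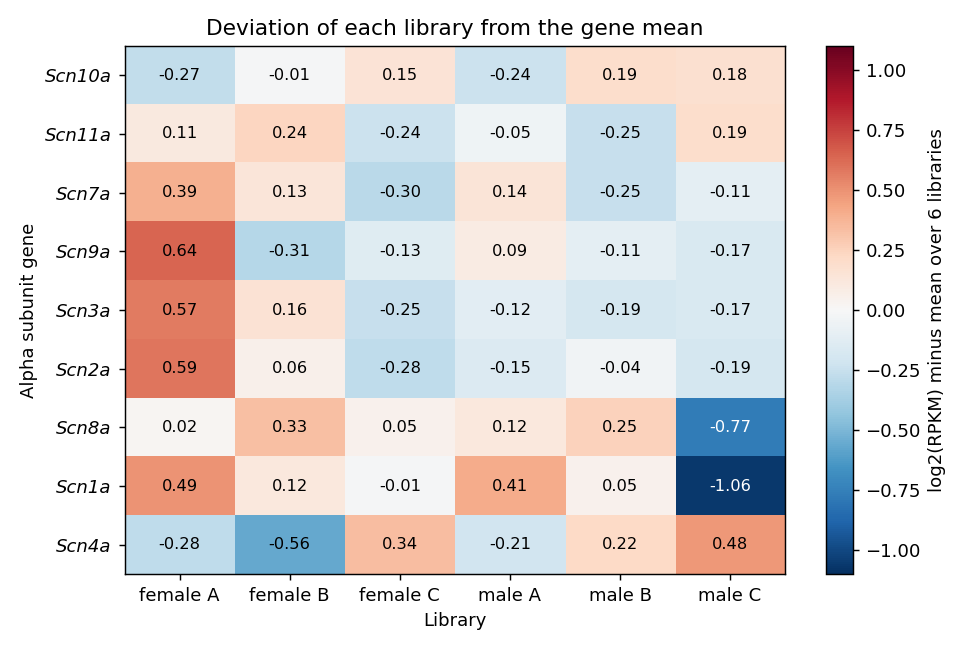
Deviation of each library from the gene's mean over 6 libraries, in log2 RPKM, with genes in order of level and females left of males. Female A is above the mean for the 5 genes of the chromosome 2 cluster, and male C is below it by 0.77 for Scn8a and 1.06 for Scn1a.

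Long genes as a whole leaned the same way in these 2 libraries, by less. Among 1215 tested genes longer than 9000 bases the median deviation from the gene mean was 0.15 in female A and -0.16 in male C on the log2 scale, and among 5968 genes of at most 3000 bases it was -0.05 in female A and 0.05 in male C. Scn1a, Scn2a, Scn3a, Scn8a and Scn9a are all longer than 9000 bases, while Scn7a, Scn10a, Scn11a and Scn4a are shorter. Female A also had the lowest summed level of nociceptor markers, 1709 RPKM. The part of gene length and of cell make-up in the deviations was not tested.

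Variation between libraries was smallest for the 2 leading genes and largest for Scn1a. The coefficient of variation was 14.1% for Scn10a, 14.7% for Scn11a, 18.7% for Scn7a, 26.5% for Scn9a, 24.1% for Scn3a, 24.4% for Scn2a, 22.9% for Scn8a, 30.9% for Scn1a and 27.5% for Scn4a. Of all tested genes, 76.2% varied more than Scn10a and 26.8% more than Scn1a. The highest library exceeded the lowest by 1.37-fold for Scn10a and by 2.93-fold for Scn1a.

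Likeness of profile was measured as the root mean square difference between 2 genes' log2 CPM after each was centred on its mean over the 6 libraries. Scn3a and Scn2a were the closest of the 36 pairs of alpha subunits, at 0.07, followed by Scn7a and Scn3a at 0.13. Scn1a and Scn4a were the least alike, at 0.73. The chromosome 9 neighbours Scn10a and Scn11a stood at 0.31. Among 8755 genes with a mean of at least 10 CPM, the nearest to Scn10a were Cdr2l (0.024), Ripor1 (0.033), Lnx1 (0.040), Spats2 (0.040) and Hsf1 (0.042), against a median of 0.28 over all of them. The nearest to Scn9a were Bclaf1 (0.056), Prkdc (0.075), Zdhhc20 (0.077), Unc13c (0.078) and Plcxd3 (0.084), against a median of 0.36. These are descriptions over 6 points that share their libraries. The nearest genes were picked as the smallest of 8755 distances, so values far below the median follow from the choice.

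Sex was the one contrast the labels offered, and none of the 9 genes passed its test. Female over male, edgeR's quasi-likelihood test with Benjamini-Hochberg adjustment called 0 of 9 members, beside 5 of 15026 tested genes, which is 0.0333%. Those 5, named here after their values were seen, were Xist, higher in females, and Ddx3y, Eif2s3y, Uty and Kdm5d, higher in males. Of the members, 0 had an unadjusted p under 0.05 in the edgeR test (166 of the 15026 tested genes had), and DESeq2 and limma-voom also called 0. All 9 passed the filter on low counts. The ranges of the sexes overlapped for all 9, beside 5.7% of tested genes for which they did not. With only 9 members, 0 is near these shares.

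With all 6 libraries Scn3a had the largest difference, 6.28 ± 1.77 RPKM in females and 4.91 ± 0.126 RPKM in males (SD, n = 3 each), a log2 fold change of 0.35 (SE 0.21, adjusted p = 0.9997 by the same edgeR test). Its spread lay in the females, between 4.60 RPKM in female C and 8.12 RPKM in female A, and without female A the log2 fold change was 0.13. Scn2a averaged 5.84 ± 1.81 RPKM in females and 4.76 ± 0.250 RPKM in males, a log2 fold change of 0.29 (SE 0.22), and without female A it was 0.026. Scn10a averaged 115 ± 16.6 RPKM in females and 123 ± 19.6 RPKM in males, a log2 fold change of -0.09 (SE 0.18). Scn11a averaged 118 ± 19.7 RPKM in females and 112 ± 17.3 RPKM in males, a log2 fold change of 0.08 (SE 0.18). For the 4 leading genes the standard errors were between 0.18 and 0.24. A call after adjustment over 15026 genes needs a difference of several standard errors, so differences well above that size could have been missed. Of the genes called, the smallest log2 fold change in size was -7.82, for Kdm5d.

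Scn9a averaged 49.2 ± 18.2 RPKM in females and 43.2 ± 4.08 RPKM in males, a log2 fold change of 0.19 (SE 0.24), and without female A it was -0.16. Scn7a had a log2 fold change of 0.17 (SE 0.20), Scn8a of 0.21 (SE 0.26), Scn1a of 0.29 (SE 0.33) and Scn4a of -0.29 (SE 0.38). 7 of 9 values were positive and their median was 0.19, beside -0.0 over all tested genes. The 9 share the same libraries, so their signs are not independent. The share of positive values over all tested genes was not counted. Scn1a, Scn2a, Scn3a, Scn8a and Scn9a, all positive, are longer than 9000 bases. Genes of that length had median deviations of 0.15, 0.09 and -0.05 in females A, B and C. They had -0.04, -0.01 and -0.16 in males A, B and C. The part of gene length was not tested. Without male C the values for Scn8a and Scn1a were -0.04 and -0.03.

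Alpha subunits work with other proteins, and 20 partner genes in 5 roles were measured in the same libraries. All 20 passed the filter, and 0 of 20 were called between sexes by the same edgeR test. Beta subunits, single-span proteins that shift gating and tether the channel, were split into a high and a low pair. Scn2b averaged 91.4 ± 38.3 RPKM and Scn3b 67.3 ± 9.24 RPKM (n = 6), while Scn4b, the source of a peptide tied to resurgent current, was lowest at 0.609 ± 0.246 RPKM. Scn2b reached 168 RPKM in male C and 68.9 to 88.3 RPKM in the other 5 libraries. The 4 beta genes summed to 238 RPKM in male C and 128 to 164 RPKM elsewhere.

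The fibroblast growth factor homologous factors bind the C-terminal tail of the alpha subunit and tune its inactivation. Fgf13 averaged 816 ± 110 RPKM, more per length than the sum of all 9 alpha subunits, and Fgf12 averaged 55.8 ± 11.6 RPKM. Fgf14 was lowest of the 4 at 1.06 ± 0.402 RPKM. The sodium leak channel Nalcn, a relative of the alpha subunits that is open at rest, averaged 5.61 ± 0.765 RPKM, close to Scn3a and Scn2a. Its auxiliary proteins were lower, with Unc79 at 0.980 ± 0.298 RPKM and Fam155a lowest at 0.461 ± 0.171 RPKM.

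Among genes that hold channels at the axon initial segment and nodes, the adhesion molecule Nrcam averaged 12.3 ± 2.08 RPKM and the scaffold ankyrin-G, Ank3, 9.42 ± 1.38 RPKM. Sptbn4, the beta-IV spectrin of those sites, was lowest at 0.0476 ± 0.0259 RPKM. Of the genes for trafficking and turnover, Dpysl2, whose product CRMP2 is known to control Nav1.7 at the membrane, averaged 2858 ± 525 RPKM. S100a10, also called p11 and known to carry Nav1.8 to the membrane, averaged 647 ± 63.8 RPKM. Nedd4l, a ubiquitin ligase that removes channels, was lowest of the role at 14.1 ± 1.72 RPKM.

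**Figure D4:**
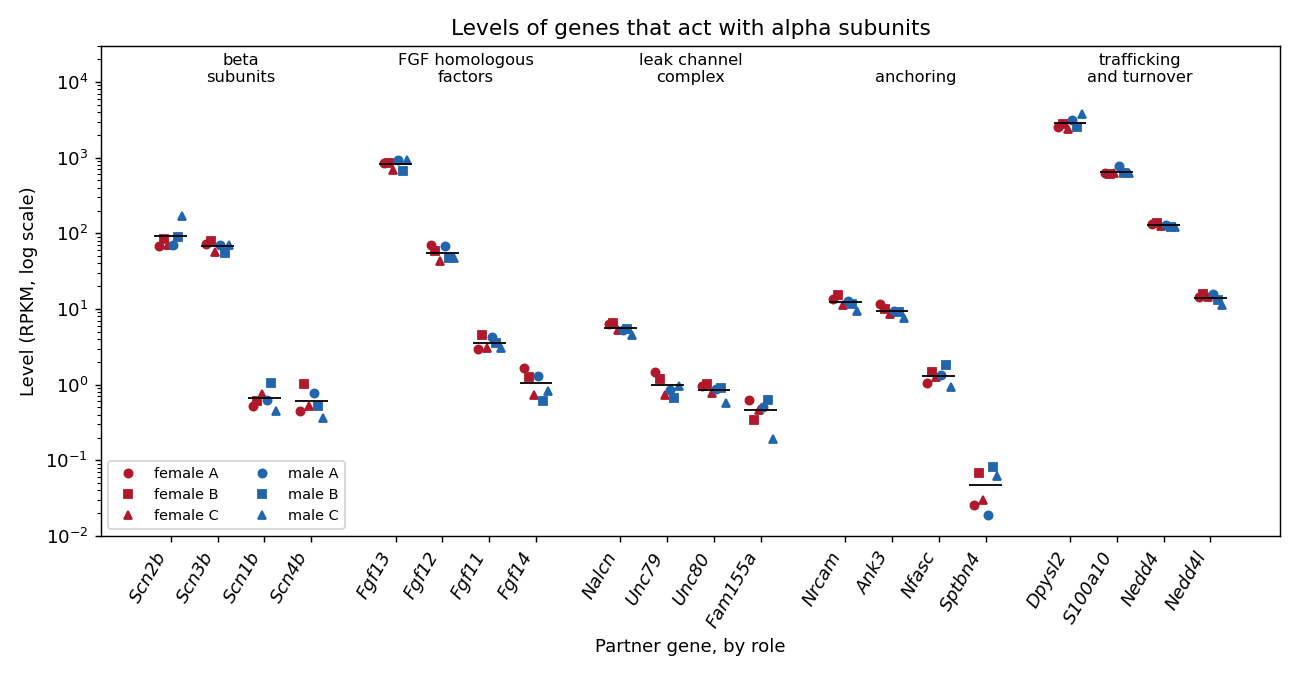
Level of 20 partner genes in every library (RPKM, log axis), grouped by role, females in red left of males in blue, with the mean of 6 libraries as a black line. Scn2b in male C (168 RPKM) lies above its other 5 libraries, and Fgf13 and Dpysl2 are the highest of their roles.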

How the data were processed

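RNA of sorted cells was amplified from 10 ng (SMARTer ultra-low input kit, then 12 PCR cycles), per the labels' protocols. Per the submitters' processing notes the authors counted reads with featureCounts 1.4.5 on GRCm38.p2. The notes also name Subread, the package that holds featureCounts and an aligner, with no role. The aligner used, annotation release, strand setting and handling of reads that match several genes were not given in the sources used here. Counts were deposited raw by the authors. The deposited CPM and RPKM equal those counts scaled to the library total, and per kilobase, and were used as an alternative. Symbols came from GENCODE M21 (97.26% of identifiers).

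Library sizes were TMM-normalised in edgeR 4.0.16 (R 4.3.3) over the 15026 genes kept by filterByExpr. Neighbouring levels were compared with sign flips over 6 libraries (exact two-sided permutation test) on log2(RPKM + 0.1), with Benjamini-Hochberg adjustment over 8 pairs. This scale understates differences of low genes. Sex was tested with edgeR's quasi-likelihood test over all genes, threshold 0.05, tried on simulated data first. The alternatives were DESeq2 1.42.0, limma-voom (limma 3.58.1), other size factors and lengths, no filter, the letter as a block and each library left out. P-values of the sex test reflect the spread between these libraries. Those of the sign-flip test take the same smallest value for every step that is uniform in sign, whatever its spread. Intervals and count limits reflect counting error alone: reads amplified by PCR and lacking molecular identifiers are not independent molecules.

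Coding sequences were translated and aligned with MAFFT 7.526. The pore stretches of 1 gene are not reported here. The 9 members, the partner and marker lists and the tests were chosen with earlier results of these data known. Named were all members, the 2 highest and the lowest partner of each role, and the 5 nearest genes to Scn10a and Scn9a. Large-diameter, fibroblast and sympathetic markers were also listed: fibroblast markers summed to 145 to 168 RPKM and sympathetic markers to at most 0.294 RPKM.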

Additional observations from a re-analysis of the deposited data

Results flagged for a closer look

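In 31 genes or sums examined over the 6 libraries, 5 had one library whose gap to its nearest neighbour exceeded the 95% critical share of the whole range in Dixon's test. Chance gives about 1 such value in 20 for independent values. The 31 share the same 6 libraries and include sums of the genes themselves, so they are not independent. The share of such values over all tested genes was not counted, so the number flagged is not a result about these genes. Scn9a was at 70.0 RPKM in female A and at 36.3 to 47.8 RPKM in the other 5 libraries. Scn2a was at 7.81 RPKM in female A and at 4.28 to 5.43 RPKM elsewhere. Scn8a was at 1.52 RPKM in male C and at 2.61 to 3.25 RPKM elsewhere. Scn2b, a beta subunit, was at 168 RPKM in male C and at 68.9 to 88.3 RPKM elsewhere. S100a10 was at 776.5 RPKM in male A and at 610.6 to 628.3 RPKM elsewhere.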

How the results depend on the processing

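The order of mean levels was the same with RLE, upper-quartile or total library sizes. With the longest annotated transcript as length, Scn10a minus Scn11a was -0.00033 and Scn8a minus Scn1a -0.19 on the log2 scale, both reversed. With that length 6 neighbouring steps passed 0.05 in place of 0. This came from Scn3a over Scn2a also becoming uniform in sign, which lowers the adjusted p of every uniform step. It does not measure strength: Scn7a minus Scn9a fell from 0.69 to 0.31 and yet passed. Leaving out each library in turn, Scn10a minus Scn11a ran between -0.043 and 0.12, and was negative without female C and without male B. The pair's share of 63.4% became 52.6% when reads were not divided by length. Female over male, leaving out each library gave log2 fold changes of -0.22 to 0.0105 for Scn10a, -0.032 to 0.20 for Scn11a, -0.0032 to 0.33 for Scn7a, -0.16 to 0.36 for Scn9a, -0.045 to 0.39 for Scn8a, -0.028 to 0.61 for Scn1a, 0.13 to 0.53 for Scn3a, 0.026 to 0.47 for Scn2a and -0.60 to -0.11 for Scn4a. Scn1a had the largest value without male A, and Scn8a exceeded Scn3a without female A. No member was called in any of these, and adjusted p over all settings was at least 0.782. Over all genes, 5 were called, against 7 by DESeq2, 6 by limma-voom and 12 with no filter. Letters do not pair the sexes (correlation of same-letter deviations 0.35, -0.35 and -0.10): as a replicate block they left 5 genes called and 0 members, and libraries did not all correlate best with their own letter. With 1 library left out the smallest sign-flip p is 0.0625, so neighbouring steps could not pass. Scn4a rests on 22 to 51 reads per library, which limits its precision.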
